A study of Mus musculus with 15 samples.

Results

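The genes described here are 10 integrin subunits, *Itgav*, *Itgb3*, *Itgb5*, *Itgb1*, *Itga4*, *Itga5*, *Itgb2*, *Itgam*, *Itgax* and *Itgal*. They were taken by name from the deposited expression table, as 10 of the 26 integrin subunit genes looked up and 10 of its 20089 complete gene entries. Expression was measured by RNA-seq of bone marrow-derived macrophages (BMDMs) from wild-type C57BL/6 mice. All 15 samples had received M-CSF, the growth factor that drives marrow cells to become macrophages, and fell into 5 groups of 3. Control cells had M-CSF alone, and the other groups had M-CSF with RANKL for 4 h, RANKL for 72 h, LPS for 4 h or LPS for 72 h. RANKL is the cytokine that turns these precursors into osteoclasts, and LPS is a bacterial product that activates them as inflammatory macrophages. The methods describe donors of BMDMs as 4 to 8 weeks old. The number of mice behind each sample and the culture time of the control cells were not given in the sources used here. A comparison of a 72 h group with control therefore cannot tell the stimulus apart from the added time in culture, whereas the RANKL and LPS groups of the same time can be compared directly. Levels are given as FPKM, the number of sequenced fragments scaled to transcript length and to library size, so that levels of different genes can be set side by side.

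Integrins are cell surface receptors made of an α and a β subunit, which bind extracellular matrix or other cells outside and the actin cytoskeleton inside. In osteoclasts, αvβ3 is the main integrin and takes part in adhesion to bone matrix, while macrophage precursors carry the related αvβ5. The β1 subunit pairs with α4 and α5, among others, to bind fibronectin, and α4β1 also binds VCAM-1 on other cells. The β2 subunit is restricted to leukocytes and pairs with αL, αM and αX, which bind ICAMs, complement fragments and fibrinogen.

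The 10 genes lie on 7 chromosomes in the GENCODE M21 annotation of GRCm38, and each name is followed here by its position. For the αv group these are *Itgav* (chr2:83724397-83806916, plus strand), *Itgb3* (chr11:104608000-104670476, plus strand) and *Itgb5* (chr16:33829665-33949338, plus strand). The β1 group holds *Itgb1* (chr8:128685654-128733200, plus strand), *Itga4* (chr2:79255426-79333123, plus strand) and *Itga5* (chr15:103344286-103366763, minus strand). In the β2 group, *Itgb2* (chr10:77530252-77565708, plus strand) is the shared subunit, and its 3 partners *Itgal* (chr7:127296260-127335138), *Itgam* (chr7:128062640-128118491) and *Itgax* (chr7:128129547-128150657) all lie on the plus strand of chromosome 7. The end of *Itgam* is 11.1 kb before the start of *Itgax*. Exons of *Itgam* overlap the protein-coding entry Gm49368 on the same strand, exons of *Itga4* overlap *Cerkl* on the opposite strand, and exons of *Itgav* overlap the noncoding Gm13684 on the opposite strand. The sources used here do not say whether strand was used in counting, so reads of these overlapping genes may not have been told apart.

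RefSeq (GRCm38.p6) gives a promoter entry for 7 of the 10 genes, and the 250 bases before the start of 3 of them are shown. *Itgam* and *Itgax* were chosen as neighbours that differed after LPS, and *Itga5* as the only subunit called in all 4 comparisons with control on the deposited scale. The start is that of RefSeq, which differs from the GENCODE position above for *Itgax* and *Itga5*. Capitals mark the PU.1 core GAGGAA, the AP-1 site TGANTCA and the E-box CACGTG on either strand. These motifs were searched for because PU.1 is a lineage factor of macrophages and osteoclasts, AP-1 acts downstream of RANKL and LPS, and the E-box is bound by the MITF family of osteoclasts.
Itgam (chr7:128062390-128062639, plus strand): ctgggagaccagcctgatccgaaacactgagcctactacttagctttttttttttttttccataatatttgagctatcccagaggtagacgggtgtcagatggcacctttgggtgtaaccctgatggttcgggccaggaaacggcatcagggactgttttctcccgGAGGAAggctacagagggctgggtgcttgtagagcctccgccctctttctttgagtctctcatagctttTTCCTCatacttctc
Itgax (chr7:128129300-128129549, plus strand): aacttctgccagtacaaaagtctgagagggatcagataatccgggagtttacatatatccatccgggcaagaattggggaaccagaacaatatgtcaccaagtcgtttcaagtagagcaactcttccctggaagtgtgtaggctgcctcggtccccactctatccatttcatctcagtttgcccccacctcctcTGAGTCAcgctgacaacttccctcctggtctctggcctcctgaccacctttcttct
Itga5 (chr15:103366792-103367041, minus strand): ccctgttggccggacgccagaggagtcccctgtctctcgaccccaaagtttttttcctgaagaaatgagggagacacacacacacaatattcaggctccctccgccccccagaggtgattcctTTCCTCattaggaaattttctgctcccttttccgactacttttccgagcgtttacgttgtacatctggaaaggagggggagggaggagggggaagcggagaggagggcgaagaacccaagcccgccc
The *Itgam* window holds 2 PU.1 cores, at 84 to 79 and 15 to 10 bases before the start, and no AP-1 site. The *Itgax* window holds an AP-1 site 56 to 50 bases before the start and no PU.1 core, and the *Itga5* window holds a PU.1 core 127 to 122 bases before the start. None of the motifs overlapped another, and none of the 3 windows held the E-box. Among the other 4 genes with an entry, *Itgav* had 2 PU.1 cores and *Itgb1* had 1, and none had an AP-1 site or E-box. Over all 32851 promoter entries, 23.3% held GAGGAA, 6.75% TGANTCA and 6.02% CACGTG in windows of the same length. These matches describe the letters only, and binding was not measured.

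Each library held 18306184 to 20330207 recovered fragments on the genes of the table, and 151 to 47195 fragments lay behind the value of a single subunit in a single library. Replicate libraries differed by 7.49 to 52.7 times the chi-square of repeat sampling, so the spread between replicates rather than counting error limits these comparisons. Nothing in the labels says that replicates came from separate animals or cultures, and p-values measure the spread between these libraries only. Macrophage identity was checked with 6 markers, whose summed level was 5210 to 16646 FPKM, most of it *Lyz2* at 3426 to 14044 FPKM. Of these 6, 1 was called higher and 1 lower in RANKL 72 h, and 1 higher and 0 lower in LPS 72 h. Of 9 osteoclast markers, 8 were called higher in RANKL 72 h, while 1 was called higher and 1 lower in LPS 72 h. *Calcr* was at 0 in all control libraries. It reached the mean of 0.1 FPKM needed for testing only through RANKL 72 h, so its own test carries no weight, also within the counts of the 9 osteoclast markers. Of 9 LPS response genes, 9 were called higher at 4 h of LPS and 7 at 72 h. Other cell types were present by their markers. The 10 neutrophil markers summed to 7913 to 24348 FPKM in control, 1852 to 7461 FPKM in RANKL 72 h (5 called lower) and 152 to 1816 FPKM in LPS 72 h (10 called lower). The 18 stromal cell markers summed to 185 to 410 FPKM in control, against 507 to 2218 FPKM in RANKL 72 h, where 9 were called higher. They summed to 130 and 137 FPKM in LPS 72 h replicates 1 and 2 but to 586 FPKM in replicate 3, the library with the highest macrophage sum. Of 7 platelet and megakaryocyte markers, 6 were called lower in RANKL 72 h and 5 in LPS 72 h. In the same 2 groups, 4 and 5 of 5 B cell markers, 6 and 5 of 6 basophil and mast cell markers and 2 and 2 of 5 dendritic cell markers were called lower. Of 7 T and NK cell markers, 1 was called higher and 1 lower in RANKL 72 h and none was called in LPS 72 h (limma). Beside these counts, 16.6% of all tested genes were called higher and 7.54% lower in RANKL 72 h. The shares were 13.0% and 14.4% in LPS 72 h and 8.43% and 39.7% in LPS 4 h. In bulk RNA, fewer cells of a type and less RNA per cell cannot be told apart.

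**Figure D1:**
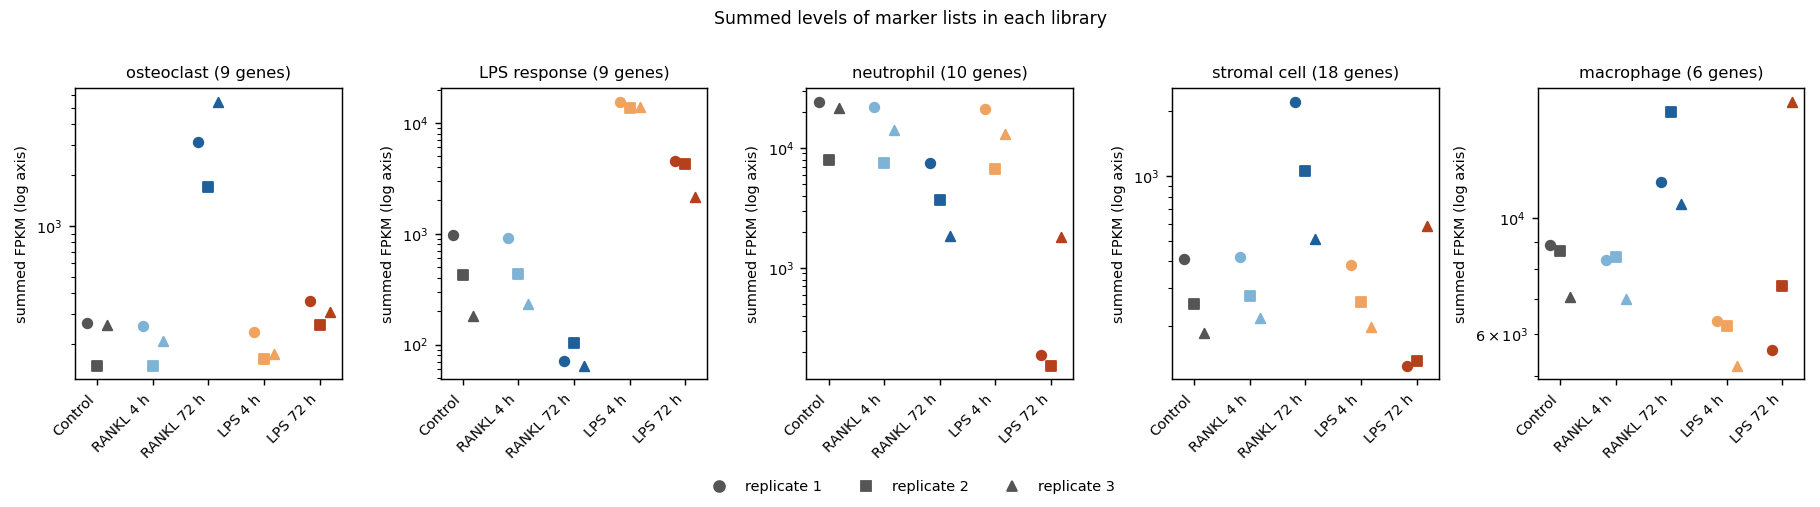
Summed FPKM (log axis) of 5 marker lists in each of the 15 libraries, by group, with the symbol giving the replicate number. The osteoclast sum stands highest in the 3 RANKL 72 h libraries, the LPS response sum in the 3 LPS 4 h libraries, and the neutrophil sum lies at 7913 to 24348 FPKM in control and 152 to 1816 FPKM in LPS 72 h.

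All 10 subunits were well above the lowest level tested. In control cells *Itgb2* was the highest at 310 ± 28.4 FPKM, followed by *Itgam* at 202 ± 43.8 FPKM and *Itgb1* at 109 ± 11.96 FPKM (SD, n = 3 each). *Itgb5* at 54.0 ± 9.27 FPKM, *Itga5* at 32.8 ± 2.95 FPKM and *Itgal* at 26.4 ± 4.27 FPKM came next (SD, n = 3 each). *Itgav*, *Itga4*, *Itgax* and *Itgb3* lay between 9.60 and 15.01 FPKM on average. In control cells *Itgb3* was thus the lowest of the 10 subunits on the FPKM scale, and *Itgb5* was more abundant than *Itgb3*.

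**Figure D2:**
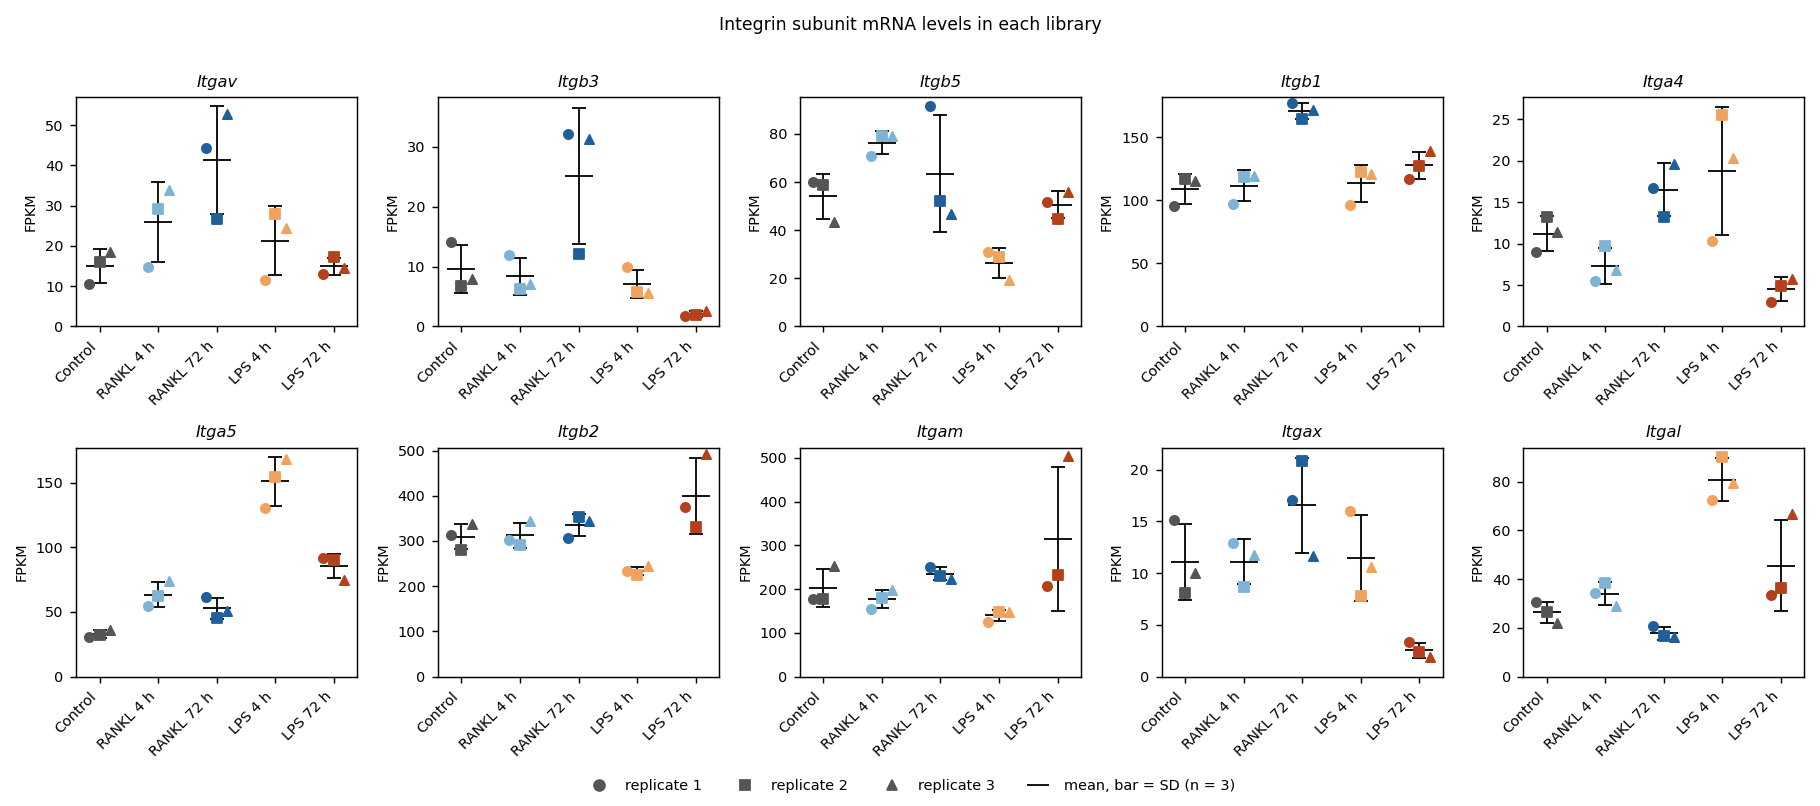
FPKM of each of the 10 subunits in the 15 libraries, with each panel on its own linear axis from 0. Symbols give the replicate number, the horizontal line is the mean of a group and the bar its SD (n = 3). *Itgav* and *Itgb3* are highest on average in RANKL 72 h, *Itga5* and *Itgal* are highest in LPS 4 h, and *Itgb3*, *Itgax* and *Itga4* are lowest in LPS 72 h.

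Against control, the subunits moved in different sets with each stimulus and time. A subunit was called at a fold change above 1.5 or below 0.66 with an adjusted p under 0.05, from limma on log2(FPKM + 0.1) with Benjamini-Hochberg adjustment over 11743 genes. All 10 subunits passed the filter of a mean of 0.1 FPKM. After RANKL for 4 h, 1 of 10 was called higher (*Itga5*) and none lower, where 0.111% of all tested genes were called higher and 0.00852% lower. After RANKL for 72 h, 4 of 10 were called higher (*Itgav*, *Itgb3*, *Itgb1* and *Itga5*) and none lower, beside 16.6% and 7.54% of all genes. After LPS for 4 h, 2 of 10 were called higher (*Itga5* and *Itgal*) and 1 lower (*Itgb5*), beside 8.43% higher and 39.7% lower. After LPS for 72 h, 2 of 10 were called higher (*Itga5* and *Itgal*) and 3 lower (*Itgb3*, *Itgax* and *Itga4*), beside 13.0% higher and 14.4% lower. The median log2 fold change of the 10 subunits was 0.04, 0.57, 0.04 and 0.13 in these 4 comparisons, beside 0.00, 0.16, -0.52 and 0.08 over all tested genes. The 4 comparisons share the control libraries.

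The typical gene itself moved on the deposited scale. The median gene of a library was 0.57 lower on the log2 scale in LPS 4 h than in control, and 0.22 higher in RANKL 72 h, while it moved by 0.08 in LPS 72 h. Calls of the 10 subunits relative to the median gene are therefore given as well. Fold changes of other genes are on the deposited scale only. On that relative scale 5 of 10 subunits were called higher and none lower in LPS 4 h (*Itgav*, *Itgb1*, *Itga4*, *Itga5* and *Itgal*), where all genes split into 15.9% higher and 13.0% lower. In RANKL 72 h the relative scale left 1 of 10 called higher (*Itgav*) and 1 called lower (*Itgal*), with 9.94% of all genes higher and 12.2% lower. With the replicate number as a block as well, *Itgb3* was also called higher on that scale. In LPS 72 h it left 1 higher (*Itga5*) and the same 3 lower (*Itgb3*, *Itgax* and *Itga4*), beside 10.3% of all genes higher and 16.1% lower.

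**Figure D3:**
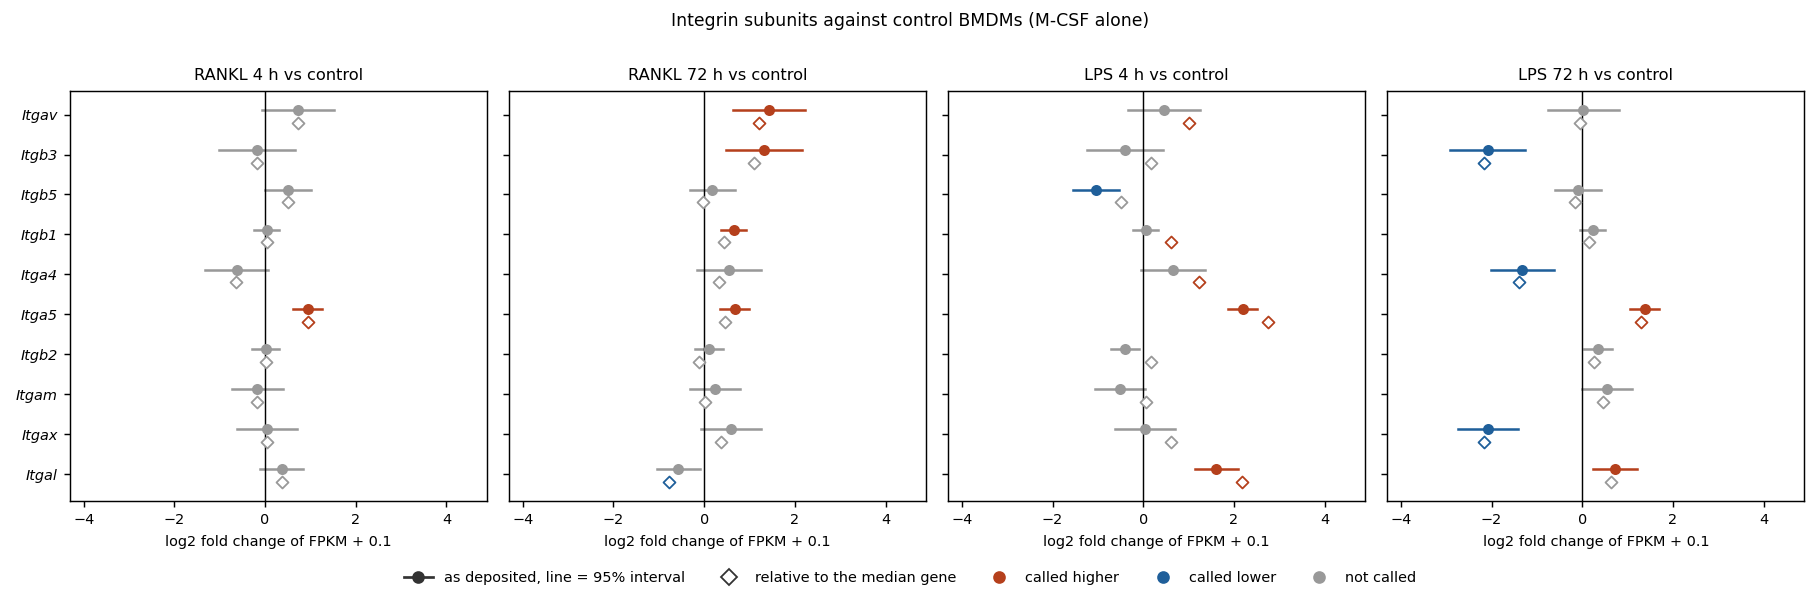
Log2 fold change of each subunit against control in 4 panels, 1 for each stimulus and time. Filled circles with 95% intervals are on the deposited scale and open diamonds are relative to the median gene, in red where called higher, blue where called lower and grey otherwise. In LPS 4 h every diamond lies to the right of its circle, and *Itgb5* is blue only as a circle.

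*Itgav* encodes αv, the partner shared by β3 and β5. Its levels were 10.4, 16.02 and 18.6 FPKM in control, against 44.3, 26.7 and 52.9 FPKM in RANKL 72 h. Every RANKL 72 h library was above every control library. This log2 fold change was 1.44 (standard error, SE, 0.37), a 2.71-fold rise (limma adjusted p = 0.0102), and 1.22 relative to the median gene (limma adjusted p = 0.0200). Without control replicate 1, the library with the lowest *Itgav* level, the log2 fold change was 1.20 and no longer called (limma adjusted p = 0.0511). At 4 h of RANKL the levels were 14.7, 29.1 and 33.8 FPKM, which overlapped control, and the log2 difference of 0.74 was not called (95% interval -0.06 to 1.53). LPS 4 h gave 11.7, 27.9 and 24.3 FPKM, a log2 difference of 0.45 that was not called, but of 1.02 relative to the median gene that was (limma adjusted p = 0.0359). LPS 72 h gave 13.1, 17.2 and 14.6 FPKM, within the range of control. In control, RANKL 4 h and LPS 4 h alike, replicate 1 was the lowest for *Itgav*.

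*Itgb3* encodes β3, the subunit that with αv forms the osteoclast integrin and with αIIb the platelet fibrinogen receptor. Its levels were 14.1, 6.81 and 7.86 FPKM in control against 32.1, 12.03 and 31.3 FPKM in RANKL 72 h. The ranges overlapped, because RANKL 72 h replicate 2 lay below control replicate 1. The log2 fold change of 1.32 (SE 0.39) was a 2.50-fold rise (limma adjusted p = 0.0200). This call was among the least firm. It was lost with no filter (adjusted p = 0.0609) and with only the 2 groups in the fit (adjusted p = 0.0572), both from limma at an unchanged value. Relative to the median gene it was lost without the replicate block (log2 fold change 1.10, limma adjusted p = 0.0597) and called with it (limma adjusted p = 0.0174), same-numbered libraries being taken as paired here. It was also lost without control replicate 2 or 3 or RANKL 72 h replicate 1 or 3, where the log2 fold change was 1.12, 1.22, 1.08 and 1.10 and the adjusted p ran from 0.0583 to 0.0809. RANKL 72 h replicate 2, the lowest of its group for *Itgb3* and *Itgav*, also had the lowest osteoclast marker sum of the group (1709 FPKM beside 3136 and 5442 FPKM). Of 7 platelet and megakaryocyte markers, 6 were called lower and none higher in this comparison, and the part of such RNA in these *Itgb3* levels was not tested.

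After LPS, the β3 subunit fell late. *Itgb3* had 9.87, 5.82 and 5.65 FPKM in LPS 4 h, which overlapped control, and 1.82, 1.86 and 2.60 FPKM in LPS 72 h, where every library was below every control library. The log2 fold change at 72 h was -2.09 (SE 0.39, limma adjusted p = 0.00109), to 0.235 of the control level. It was called under every alternative run, with values from -2.30 to -1.72. *Itga2b*, which encodes αIIb, the platelet partner of β3, fell by 3.52 on the log2 scale in the same comparison (limma adjusted p = 0.000278), and 5 of 7 platelet and megakaryocyte markers were called lower. Replicate 1 was the highest of its group for both *Itgb3* and *Itga2b* in control, RANKL 4 h and LPS 4 h, with *Itga2b* at 24.3, 21.1 and 19.9 FPKM there and at 6.02 to 9.68 FPKM in the other libraries of those groups. The part of platelet or megakaryocyte RNA in the *Itgb3* levels was not tested. In RANKL 72 h, where *Itgb3* was highest, *Itga2b* was at 0.375 to 0.907 FPKM.

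*Itgb5* encodes β5, which also pairs with αv. Its levels were 60.0, 58.7 and 43.3 FPKM in control, then 70.8, 79.0 and 79.3 FPKM in RANKL 4 h and 31.2, 28.9 and 19.1 FPKM in LPS 4 h. The RANKL 4 h libraries were all above control, yet the log2 difference of 0.51 was not called (limma adjusted p = 0.985). The LPS 4 h libraries were all below control, with a log2 fold change of -1.05 (SE 0.24, limma adjusted p = 0.00174), but of -0.48 relative to the median gene, which was not called (limma adjusted p = 0.142). At 72 h the levels overlapped control under both stimuli, at 91.6, 52.1 and 46.9 FPKM after RANKL and 51.5, 44.5 and 55.8 FPKM after LPS. The 95% interval of the log2 difference from control was -0.32 to 0.69 for RANKL 72 h and -0.59 to 0.42 for LPS 72 h. RANKL 72 h replicate 1, the highest of its group, also had the highest stromal marker sum (2218 FPKM), and the part of stromal RNA in *Itgb5* was not tested.

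The ratio of *Itgb3* to *Itgb5* within a library does not depend on how libraries are scaled. It was 0.236, 0.116 and 0.181 in control, 0.168, 0.0788 and 0.0885 in RANKL 4 h, 0.351, 0.231 and 0.667 in RANKL 72 h, 0.317, 0.201 and 0.296 in LPS 4 h and 0.0353, 0.0419 and 0.0466 in LPS 72 h. β5 transcripts thus outnumbered β3 transcripts per length in all 15 libraries, RANKL 72 h included. The mean log2 ratio was 1.15 higher in RANKL 72 h than in control with overlapping values (two-sided exact permutation test, p = 0.2). Taken by replicate number, it was higher in 3 of 3 pairs, by 0.57, 0.99 and 1.88. It was likewise higher in 3 of 3 pairs in LPS 4 h, by 0.43, 0.80 and 0.71, and lower in 3 of 3 pairs in RANKL 4 h, with differences of -0.49, -0.56 and -1.04. Each of these had p = 0.25 by an exact permutation of signs within pairs, the smallest that 3 pairs allow. It was 2.06 lower in LPS 72 h with no overlap (p = 0.1 by the same exact permutation test, its minimum with 3 samples a group). A p of 0.05 cannot be reached in this design.

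**Figure D4:**
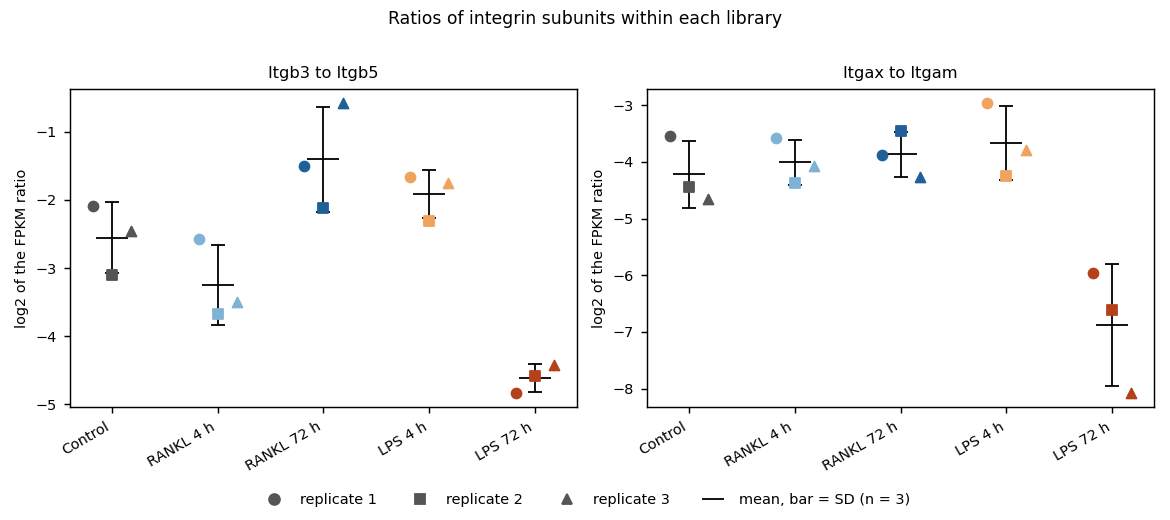
Log2 of the FPKM ratio of *Itgb3* to *Itgb5* (left) and of *Itgax* to *Itgam* (right) in each library, with the mean and SD of each group (n = 3) and symbols for the replicate number. For both ratios the 3 LPS 72 h libraries lie below all control libraries, at -4.83 to -4.42 on the left and -8.07 to -5.97 on the right.

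*Itgb1* encodes β1, the partner of more α subunits than any other β chain. It was steady in most groups, at 95.4, 117 and 115 FPKM in control, and reached 177, 164 and 172 FPKM in RANKL 72 h. All 3 RANKL 72 h libraries were above the 12 others. The log2 fold change against control was 0.65 (SE 0.13), or 1.57-fold (limma adjusted p = 0.00209). This lies close to the fold threshold. Relative to the median gene it was 0.43 (limma adjusted p = 0.0236) and without control replicate 1 it was 0.56 (limma adjusted p = 0.0130), both under the fold threshold. The 4 h groups and LPS 72 h differed from control by 0.03 to 0.23 on the log2 scale and were not called, except that LPS 4 h was 0.62 higher relative to the median gene (limma adjusted p = 0.00189).

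*Itga5* encodes α5, which with β1 forms a fibronectin receptor, and it was the only one of the 10 subunits called in all 4 comparisons with control on the deposited scale. It had 30.3, 32.0 and 36.1 FPKM in control and 130, 155 and 168 FPKM in LPS 4 h. The LPS 4 h level was 4.58-fold higher, a log2 fold change of 2.20 (SE 0.15, limma adjusted p = 8.8e-08). LPS 72 h followed at 91.5, 90.4 and 74.7 FPKM, with a log2 fold change of 1.38 (limma adjusted p = 2.4e-05). Both RANKL groups were also above every control library, at 54.5, 62.0 and 74.1 FPKM at 4 h and 61.8, 45.7 and 50.9 FPKM at 72 h. The RANKL 4 h log2 fold change of 0.94 (SE 0.15, limma adjusted p = 0.0305) was called in a comparison with few calls, and lost its call (adjusted p from 0.0752 to 0.191) without control replicate 1, 2 or 3 or RANKL 4 h replicate 2 or 3, although its value stayed between 0.83 and 1.01. With all libraries kept, the call was also lost with no filter (adjusted p = 0.0811), with libraries scaled to equal sums (0.101), with only the 2 groups in the fit (0.185) and with no trend (0.0761). The RANKL 72 h log2 fold change of 0.68 (limma adjusted p = 0.00435) was under the fold threshold relative to the median gene (0.46) and without RANKL 72 h replicate 1 (0.56). The groups of highest *Itga5*, LPS 4 h and then LPS 72 h, did not overlap with each other or with any other group.

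*Itga4* encodes α4, the other β1 partner and a homing receptor of leukocytes. Its levels were 8.96, 13.2 and 11.4 FPKM in control and fell to 2.98, 4.83 and 5.79 FPKM in LPS 72 h, below every control library. On the log2 scale the fold change was -1.32 (SE 0.33, limma adjusted p = 0.00683). Markers of neutrophils, of B cells and of basophils and mast cells fell there as given above, while no T and NK cell marker was called. The part of these cells in the *Itga4* level was not tested. In LPS 4 h the levels were 10.3, 25.5 and 20.4 FPKM, and the log2 difference of 0.66 was not called (limma adjusted p = 0.0979). With the replicate number as a block, as the same-numbered libraries deviated together in this comparison, the value of 0.66 was called (limma adjusted p = 0.0317). Relative to the median gene the value of 1.22 was called without the block (limma adjusted p = 0.00984) and with it (limma adjusted p = 0.00214). On the deposited scale and without the block, *Itga4* was also called without LPS 4 h replicate 1, the low library, at 1.04 (limma adjusted p = 0.0102). The RANKL groups, with 5.46, 9.70 and 6.79 FPKM at 4 h and 16.7, 13.2 and 19.6 FPKM at 72 h, were not called against control.

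*Itgb2* encodes β2, and *Itgam* encodes αM, its partner in the myeloid complement receptor Mac-1. Neither was called against control in any group. *Itgb2* ranged from 280 to 337 FPKM in control, 291 to 343 FPKM in RANKL 4 h, 307 to 352 FPKM in RANKL 72 h, 226 to 244 FPKM in LPS 4 h and 331 to 493 FPKM in LPS 72 h. The LPS 4 h libraries were all below control, and the log2 difference of -0.40 (limma adjusted p = 0.0254) did not reach the fold threshold and turned to 0.17 relative to the median gene. *Itgam* ranged from 177 to 252 FPKM in control, 155 to 198 FPKM in RANKL 4 h, 224 to 252 FPKM in RANKL 72 h and 125 to 148 FPKM in LPS 4 h. In LPS 72 h it had 207, 233 and 505 FPKM, and replicate 3 stood apart for *Itgb2* and *Itgal* as well. That library had 16646 FPKM of macrophage and 1816 FPKM of neutrophil markers, beside 5590 and 7396 FPKM and 186 and 152 FPKM in the other 2. *Lyz2* made up most of its macrophage sum, at 13800 FPKM. The 95% interval of the *Itgam* difference in LPS 72 h was -0.02 to 1.10 on the log2 scale, and without LPS 72 h replicate 1 it was called at 0.79 (limma adjusted p = 0.0431).

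*Itgax* encodes αX, known as the CD11c marker of dendritic cells and tissue macrophages. Its levels were 15.1, 8.06 and 9.98 FPKM in control and fell to 3.31, 2.39 and 1.88 FPKM in LPS 72 h, below every library of every other group. Its log2 fold change was -2.07 (SE 0.31, limma adjusted p = 0.000218), to 0.238 of control, and was called under every alternative run. LPS 4 h, at 15.98, 7.79 and 10.6 FPKM, overlapped control, so the difference was seen at the late time only. RANKL 72 h had 17.1, 20.9 and 11.7 FPKM and overlapped control, with a log2 difference of 0.59 that was not called (limma adjusted p = 0.162). The 5 dendritic cell markers summed to 4.98 to 18.7 FPKM in control and 0.607 to 1.96 FPKM in LPS 72 h, with *Cd209a* and *Siglech* at 0 in all 3 LPS 72 h libraries, and neutrophil markers fell as given above. The part of these cells in the *Itgax* level was not tested.

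The neighbours *Itgam* and *Itgax*, whose promoter windows are shown above, parted in LPS 72 h. The ratio of *Itgax* to *Itgam* was 0.0857, 0.0457 and 0.0395 in control and 0.0160, 0.0102 and 0.00372 in LPS 72 h. The mean log2 ratio was 2.66 lower without overlap (p = 0.1 by the exact permutation test, again its minimum). In the other 3 groups the ratio lay between 0.0484 and 0.128 and overlapped control, with exact p from 0.4 to 0.6 (two-sided permutation tests). By replicate number it was higher in 3 of 3 pairs in LPS 4 h, by 0.58, 0.20 and 0.87 (p = 0.25, exact permutation of signs). Since LPS 72 h replicate 3 was the highest of its group for *Itgam* and the lowest for *Itgax*, its ratio was the lowest of the 15 libraries.

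*Itgal* encodes αL, which with β2 forms LFA-1, the receptor for ICAM-1. It had 30.6, 26.7 and 22.03 FPKM in control and 72.6, 90.3 and 79.5 FPKM in LPS 4 h, above every library of every other group. The log2 fold change was 1.62 (SE 0.22), or 3.07-fold (limma adjusted p = 4.07e-05). In LPS 72 h it had 33.7, 36.2 and 66.9 FPKM, all above control, with a log2 fold change of 0.73 (limma adjusted p = 0.0218). That call was lost with no filter (adjusted p = 0.0596) and with only the 2 groups in the fit (adjusted p = 0.0855, both from limma). It was also lost without LPS 72 h replicate 3 (0.41, adjusted p = 0.0581), control replicate 2 (0.74, adjusted p = 0.0503) or control replicate 3 (0.60, adjusted p = 0.0823), and relative to the median gene (0.64, adjusted p = 0.0690, all from limma). RANKL 72 h went the other way, at 20.7, 16.5 and 16.1 FPKM, with all 3 libraries below control. Its log2 difference of -0.57 was not called (limma adjusted p = 0.0681), whereas the difference of -0.79 relative to the median gene was (limma adjusted p = 0.0351).

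The direct comparison of the stimuli at the same time asks which subunits distinguish cells under RANKL from cells under LPS. The groups at 72 h also differed in markers of other cells, with 7 of 10 neutrophil markers called higher with RANKL, 9 of 18 stromal markers higher and 1 lower, and 3 of 7 platelet and megakaryocyte markers lower, and their part in the subunit levels was not tested. At 72 h, 4 of 10 subunits were called higher with RANKL (*Itgb3*, *Itgax*, *Itga4* and *Itgav*) and 2 lower (*Itgal* and *Itga5*), where 23.3% of all genes were higher and 12.8% lower (19.0% and 17.4% relative to the median gene). *Itgb3* differed most, at 32.1, 12.03 and 31.3 FPKM against 1.82, 1.86 and 2.60 FPKM, a 10.6-fold difference (log2 3.41, SE 0.39, limma adjusted p = 1.22e-05). *Itgax* differed 6.33-fold (log2 2.66, limma adjusted p = 1.42e-05), *Itga4* 3.66-fold (log2 1.87, adjusted p = 0.000406) and *Itgav* 2.66-fold (log2 1.41, adjusted p = 0.00683). *Itgal* was at 0.409 of its LPS 72 h level (limma adjusted p = 0.000373) and *Itga5* at 0.616 (adjusted p = 0.00183). The groups did not overlap for these 6 subunits, but the 6 were picked by their calls in this comparison, so this adds no evidence. The share of all genes without overlap was not counted. These 6 calls held under every alternative run. *Itgb2*, *Itgb5* and *Itgam* were not called, with 95% intervals of the log2 difference of -0.54 to 0.07, -0.24 to 0.77 and -0.86 to 0.26, and *Itgb1*, 0.43 higher with RANKL (limma adjusted p = 0.0147), did not reach the fold threshold.

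At 4 h, 1 of 10 was called higher with RANKL than with LPS (*Itgb5*) and 3 lower (*Itga4*, *Itga5* and *Itgal*), where 41.0% of all genes were higher and 8.98% lower (13.5% and 16.2% relative to the median gene). *Itgb5* was 2.95-fold higher with RANKL (log2 1.56, limma adjusted p = 7.79e-05), and still 0.99 higher relative to the median gene (adjusted p = 0.00527). *Itga4*, *Itga5* and *Itgal* were at 0.410, 0.420 and 0.420 of their LPS 4 h levels (adjusted p = 0.00387, 1.13e-05 and 0.000295 from limma). *Itga4* was thus lower with RANKL than with LPS at 4 h and higher at 72 h. *Itga5* and *Itgal* were lower with RANKL at both times.

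The comparison of times within a stimulus asks which subunits differed between its 4 h and 72 h groups. The added time in culture cannot be told apart from the response to the stimulus here. Markers of other cells differed too, and their part in the subunit levels was not tested. Between the RANKL times, 4 of 10 neutrophil markers were called lower and 6 of 18 stromal markers higher, and none of either list the other way. Between the LPS times, 10 of 10 neutrophil and 5 of 5 B cell markers were called lower. From 4 h to 72 h of RANKL, 3 of 10 were called higher (*Itgb3*, *Itga4* and *Itgb1*) and 1 lower (*Itgal*), beside 16.4% and 6.83% of all genes (9.72% and 11.5% relative to the median gene). *Itgb3* was 2.84-fold higher at the later time (log2 1.504, limma adjusted p = 0.0112) and *Itgal* at 0.525 of its 4 h level (limma adjusted p = 0.0075). *Itga4* was 2.27-fold higher (log2 1.18, limma adjusted p = 0.0157), and lost the call without RANKL 4 h replicate 1 (0.995, adjusted p = 0.0697) or RANKL 72 h replicate 3 (1.05, adjusted p = 0.0592). *Itgb1* was 1.54-fold higher (log2 0.62, limma adjusted p = 0.00302), and under the fold threshold without RANKL 4 h replicate 1 (0.52) and relative to the median gene (0.40). Without RANKL 72 h replicate 1, *Itgb5* was called lower at the later time (-0.62, limma adjusted p = 0.0389).

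From 4 h to 72 h of LPS, 3 of 10 were called higher (*Itgb2*, *Itgb5* and *Itgam*) and 5 lower (*Itgax*, *Itga4*, *Itgb3*, *Itgal* and *Itga5*), beside 44.2% and 13.9% of all genes (18.8% and 27.5% relative to the median gene). *Itgax* was at 0.231 and *Itga4* at 0.254 of the 4 h level (adjusted p = 4.3e-05 and 0.000121 from limma). *Itgb3* was at 0.311, *Itgal* at 0.539 and *Itga5* at 0.567 of the 4 h level (adjusted p = 0.00159, 0.00286 and 0.000274 from limma). The 3 rises, of 0.75 for *Itgb2*, 0.96 for *Itgb5* and 1.05 for *Itgam* on the log2 scale, had adjusted p of 0.000354, 0.00244 and 0.00261 (limma). The median gene was 0.65 higher at 72 h than at 4 h. Relative to it these 3 differences were 0.10, 0.31 and 0.41 and not called, while the 5 falls were called and *Itgav* was called lower too (-1.07, limma adjusted p = 0.0191).

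**Figure D5:**
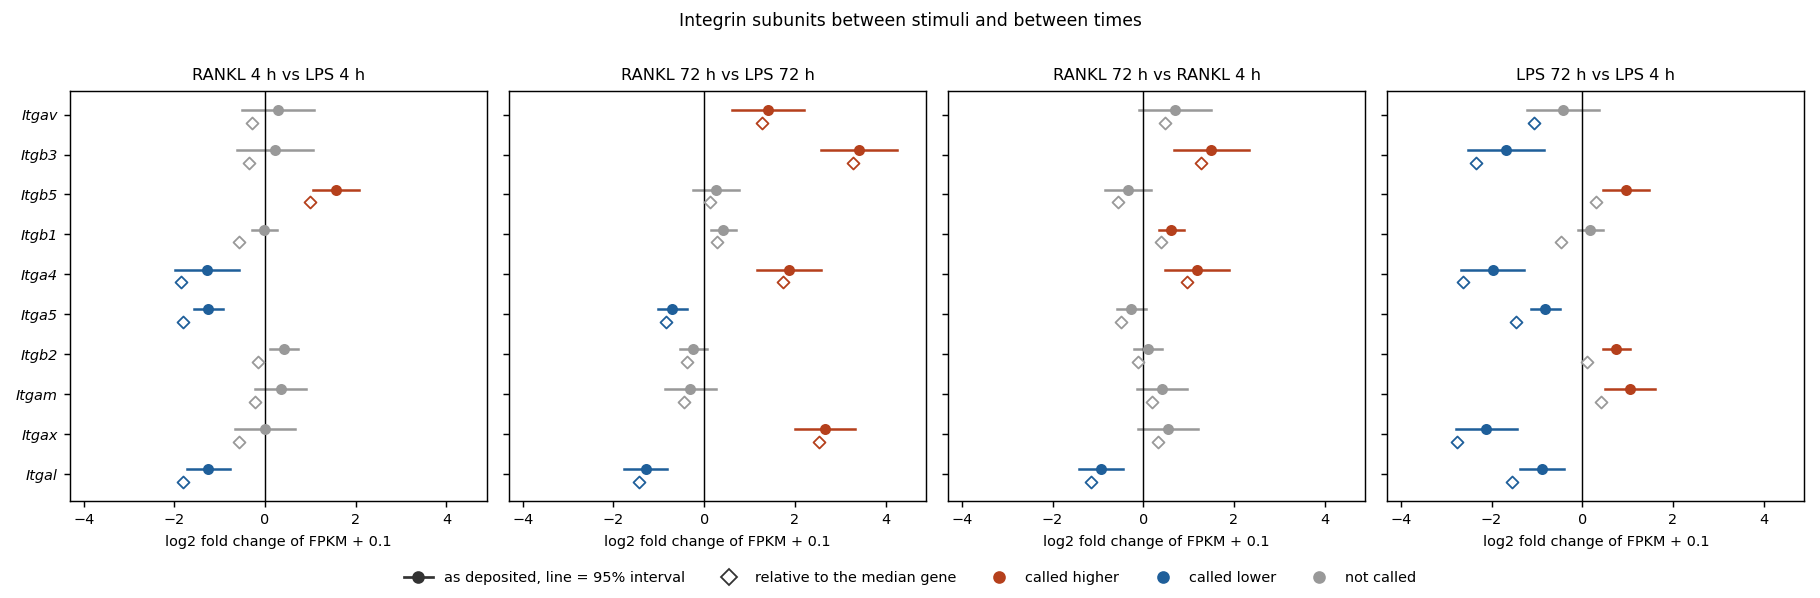
Log2 fold change of each subunit between RANKL and LPS at 4 h and at 72 h, and between 72 h and 4 h within RANKL and within LPS. Filled circles with 95% intervals are on the deposited scale and open diamonds relative to the median gene, coloured by call as red for higher, blue for lower and grey for not called. *Itgb3* and *Itgax* lie farthest to the right in RANKL 72 h against LPS 72 h, and the 3 red circles of LPS 72 h against LPS 4 h have grey diamonds.

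The other integrin subunits, the proteins that bind integrin tails and the integrin ligands give the surroundings of these 10 genes. Of 16 other subunit genes 13 were tested, and 3 were called higher and 2 lower in RANKL 72 h, 2 higher and 3 lower in LPS 72 h, 1 higher and 2 lower in LPS 4 h and none in RANKL 4 h. The 1 called higher in LPS 4 h was *Itgb8*, which passed the filter only through LPS 4 h, so that call carries no weight. The counts of this list and of the next 2 stand beside 16.6% higher and 7.54% lower of all genes in RANKL 72 h, 13.0% and 14.4% in LPS 72 h and 8.43% and 39.7% in LPS 4 h. *Itgad*, which encodes the β2 partner αD and starts 3.7 kb after *Itgax*, had 3.86, 2.03 and 2.05 FPKM in control and 0.260, 0.220 and 0.214 FPKM in LPS 72 h. It fell by 2.99 on the log2 scale there (limma adjusted p = 1.92e-05) and by 0.98 in RANKL 72 h (adjusted p = 0.0291), where its neighbour *Itgax* was not called. *Itga2b* fell by 4.29 in RANKL 72 h (limma adjusted p = 0.000104). *Itga9*, a β1 partner, rose by 1.18 in RANKL 72 h and 1.37 in LPS 72 h (adjusted p = 0.0195 and 0.00738 from limma). *Itga11*, a collagen-binding β1 partner of mesenchymal cells, had 0.670, 0.846 and 0.699 FPKM in control. In RANKL 72 h it had 7.26, 3.65 and 1.65 FPKM, in the same replicate order as the stromal marker sums of 2218, 1059 and 507 FPKM. It reached the mean of 1 FPKM needed to be named here only through RANKL 72 h, so no test of it is given.

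Of 21 tested regulators at the integrin tail, 3 were called higher and 2 lower in RANKL 72 h, 4 higher and 4 lower in LPS 72 h, 3 higher and 4 lower in LPS 4 h and none in RANKL 4 h. *Src*, the kinase that signals from αvβ3 in osteoclasts, had 6.06, 3.44 and 3.54 FPKM in control, then 28.9, 18.4 and 43.6 FPKM in RANKL 72 h, 61.1, 59.6 and 55.3 FPKM in LPS 4 h and 12.1, 14.2 and 11.5 FPKM in LPS 72 h. It rose most in LPS 4 h, by 3.77 on the log2 scale, beside 2.74 in RANKL 72 h and 1.56 in LPS 72 h (adjusted p = 6.42e-07, 6.04e-05 and 0.00226 from limma). *Fermt2*, a kindlin of adherent cells, rose by 1.45 in RANKL 72 h (limma adjusted p = 0.0228), at 14.5, 6.16 and 3.49 FPKM, again in the replicate order of the stromal sums. *Fyb*, an adaptor of leukocyte integrin activation, rose by 1.34 in LPS 72 h (limma adjusted p = 0.000146). *Rasgrp2*, an activator of Rap1, and *Parvg*, the leukocyte parvin, fell under both stimuli at 72 h, by 1.82 and 0.98 with RANKL and by 2.57 and 1.85 with LPS (adjusted p from 1.9e-05 to 0.00385, limma).

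The α4β1 ligand gene *Vcam1* and the αv ligand gene *Vtn* were not analysed here. Of 14 tested ligand genes, 5 were called higher and 1 lower in RANKL 72 h, 6 higher and 1 lower in LPS 72 h, 3 higher and 2 lower in LPS 4 h and none in RANKL 4 h. *Edil3*, an RGD protein that binds αv integrins, had 0.0525 to 0.113 FPKM in control against 6.92, 3.92 and 10.9 FPKM in RANKL 72 h. It reached the mean of 1 FPKM needed to be named here only through RANKL 72 h, so no test of it is given. *Fn1*, the fibronectin bound by α5β1, rose by 2.20 in RANKL 72 h (limma adjusted p = 0.000997), from 21.2 to 22.3 FPKM in control to 217, 84.2 and 55.2 FPKM, in the replicate order of the stromal sums, whose part in it was not tested. *C3*, the source of the αMβ2 ligand iC3b, fell by 0.69 in RANKL 72 h (limma adjusted p = 0.0345). In LPS 72 h, *Thbs1* and *Tnc*, matrix proteins bound by αv and α9 integrins among others, rose by 1.80 and 1.33 (adjusted p = 0.00519 and 0.041 from limma). *Ibsp*, a bone sialoprotein, was the 1 called lower there, at 0.435 to 1.51 FPKM in control and 0.0480 to 0.0512 FPKM in LPS 72 h. These LPS 72 h levels lie near the floor, below the 0.1 FPKM added before taking logs. *Ibsp* reached the mean of 1 FPKM needed to be named here only through RANKL 72 h replicate 2, at 43.1 FPKM, so no test of it is given.

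The genes whose pattern was most like that of a subunit were ranked by Pearson's r of log2 values over the 15 libraries, among 9485 genes averaging 1 FPKM or more. The libraries share groups, replicate numbers and control cells, so these values describe likeness only. *Itgav* was most like *Tns3* (r = 0.942), an adaptor of focal adhesions, and *Itgb3* most like *Lat* (r = 0.953). *Itgb1* followed *Pls3* (r = 0.958), an actin-bundling protein, and *Itgb5* followed *Nuak1* (r = 0.944). *Itgb2* and *Itgam* shared their most like gene, *Nucb1* (r = 0.954 and 0.928). *Itgax* was most like *Cks2* and *Hmgb2* (r = 0.928 and 0.922), genes known from dividing cells, and *Itga4* most like *Aim1* (r = 0.909). *Itga5* was most like *Skil*, *Tnfrsf1b* and *Irak2* (r = 0.948, 0.925 and 0.923), and *Itgal* most like *Acod1*, *Ikbke* and *Cebpb* (r = 0.940, 0.938 and 0.928), of which *Irak2*, *Acod1* and *Cebpb* are known LPS-induced genes.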

How the data were processed

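BMDM libraries were prepared from total RNA with a SMARTer mRNA-seq kit, per the labels. The deposited table holds an FPKM value for each gene in each library. The authors' methods attribute it to StringTie and Ballgown, and the submitters' processing notes name StringTie with the builds GRCm38.p4 and mm10. The aligner is not given in the sources used here. The table used here is ordered by gene name and ends among names in Tt, so genes after that were not analysed here, and its incomplete last line was not used. Groups and replicate numbers came from the labels, which give 3 days for the 72 h groups. For M-CSF, the design text gives 3 days and the methods another length.

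Whole fragments were recovered from the steps of the FPKM values, for 14485 of 14485 genes above 0 in at least 3 libraries, within 0.01 of a whole number. All 5 groups were fitted at once with limma 3.58.1 (R 4.3.3; lmFit, eBayes with trend) on log2(FPKM + 0.1), for 11743 of 20089 genes, those averaging 0.1 FPKM or more. These fold changes understate the change of low genes. Call thresholds were a fold change of 1.5 or 0.66, from the study's methods, and an adjusted p of 0.05. The recovery and the fit were tested on simulated data. Ratios were compared by two-sided exact permutation tests.

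The replicate block was checked by correlating deviations of same-numbered libraries from their group means over 9486 genes. The lowest r was 0.707 for RANKL 4 h, 0.136 for RANKL 72 h and 0.440 for LPS 4 h with control, 0.555 between the 4 h groups and 0.162 between the RANKL times, all above 0.1 and taken as paired. It was -0.030, -0.229 and -0.151 in the 3 comparisons with LPS 72 h, which were not. On the deposited scale the block changed 1 call of a subunit, that of *Itga4* in LPS 4 h (log2 0.66, adjusted p = 0.0317 from limma).

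The 10 subunits and all gene lists were chosen with earlier results of these data known. Named genes are the 10 subunits and, from each other list, up to 2 called genes with the largest rise and 2 with the largest fall at 72 h among those with a mean of at least 1 FPKM, while a gene in a comparison outside this rule was chosen after its values were seen. Alternatives were the pseudocount (1 and 0.01), the filter, the scaling, the groups in the fit, the block, the trend, the p adjustment, limma voom on fragments and leaving out each library. The block with centring on the median gene was added after seeing the data. Python 3.11.15 with numpy 2.4.6, pandas 2.3.3, scipy 1.17.1 and matplotlib 3.10.9 was used.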

Additional observations from a re-analysis of the deposited data

Results flagged for a closer look

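Levels differed between the 2 times of a stimulus for 4 of 10 subunits with RANKL and 8 of 10 with LPS. Of all tested genes, 23.3% differed between the times of RANKL and 58.1% between those of LPS. The limma test was the difference of the 72 h and 4 h groups, in which the shared control cancels. It cannot tell the response to the stimulus apart from the added time in culture. For RANKL the level at 72 h minus that at 4 h was 1.504 for *Itgb3*, 0.62 for *Itgb1*, 1.18 for *Itga4* and -0.93 for *Itgal* on the log2 scale. For LPS it was 0.75 for *Itgb2*, 0.96 for *Itgb5*, 1.05 for *Itgam*, -1.69 for *Itgb3*, -2.11 for *Itgax*, -1.98 for *Itga4*, -0.82 for *Itga5* and -0.89 for *Itgal*. *Itgb3* and *Itga4* differed in opposite directions, later values being higher with RANKL and lower with LPS. Relative to the median gene, 3 of 10 were called for RANKL and 6 of 10 for LPS, beside 21.2% and 46.3% of all tested genes. On that scale *Itgb1* for RANKL (0.40) and *Itgb2*, *Itgb5* and *Itgam* for LPS (0.10, 0.31 and 0.41) were not called, while *Itgav* was called for LPS (-1.07). With 3 libraries a group, no library was tested for standing apart.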

How the results depend on the processing

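Of 80 fold changes of single subunits (10 subunits in 8 comparisons), 35 were called, 23 of them under each of the 18 alternatives run for every result. None of the 35 turned sign, and 7 of the 45 others were called under at least 1 alternative. The count of subunits called in RANKL 4 h was 0 in place of 1 with no filter, with equal sums, with only the 2 groups in the fit and with no trend. Centring on the median gene gave 2 in place of 4 in RANKL 72 h and 5 in place of 3 in LPS 4 h, the latter also with the replicate block. The block alone moved no count of subunits by over 1.5 times, with 4 in place of 3 in LPS 4 h, but gave 24 in place of 14 genes called of all tested in RANKL 4 h. Leaving out 1 library gave counts of 0 to 1 in RANKL 4 h, 2 to 4 in RANKL 72 h and 2 to 5 for RANKL 72 h against 4 h.

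Centring, with or without the block, turned 12 uncalled values. Against control they became -0.11 (*Itgb2*) and -0.036 (*Itgb5*) in RANKL 72 h, 0.17 (*Itgb3* and *Itgb2*) and 0.056 (*Itgam*) in LPS 4 h, and -0.055 (*Itgav*) in LPS 72 h. They became -0.28 (*Itgav*), -0.35 (*Itgb3*), -0.16 (*Itgb2*) and -0.23 (*Itgam*) for RANKL 4 h against LPS 4 h, -0.12 (*Itgb2*) between the RANKL times and -0.47 (*Itgb1*) between the LPS times. *Itgax* in RANKL 4 h against LPS 4 h turned to 0.014 with equal sums and 0.010 with voom. By construction, centring subtracts the shift of the median gene from every value.

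Leaving out 1 library turned 16 uncalled values. Their ranges in RANKL 4 h against control were -0.26 to 0.001 (*Itgam*), -0.16 to 0.29 (*Itgax*), -0.061 to 0.13 (*Itgb1*), -0.060 to 0.073 (*Itgb2*) and -0.46 to 0.13 (*Itgb3*). In RANKL 4 h against LPS 4 h they were -0.10 to 0.65 (*Itgav*), -0.25 to 0.27 (*Itgax*), -0.13 to 0.077 (*Itgb1*) and -0.057 to 0.48 (*Itgb3*). In LPS 4 h they were -0.23 to 0.29 (*Itgax*) and -0.042 to 0.16 (*Itgb1*), in LPS 72 h -0.21 to 0.20 (*Itgav*) and -0.24 to 0.005 (*Itgb5*), and in RANKL 72 h -0.11 to 0.37 (*Itgb5*). For RANKL 72 h against LPS 72 h they were -0.55 to 0.10 (*Itgam*) and -0.028 to 0.45 (*Itgb5*). The log2 ratio of *Itgax* to *Itgam* in RANKL 4 h ran from -0.012 to 0.55. Beyond this, a group of 3 limits the ratio tests to p = 0.1 (exact permutation test).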

Other observations

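Genes beyond the naming rule were looked at after their values were seen. *Icam1*, whose protein is the ligand of αLβ2, had 39.9, 26.3 and 21.9 FPKM in control and 526, 531 and 400 FPKM in LPS 4 h, a log2 fold change of 4.08 (adjusted p = 2.6e-08 from limma), in the group where *Itgal* was also highest. In LPS 72 h *Icam1* was at 45.1, 48.4 and 51.0 FPKM (log2 fold change 0.76, adjusted p = 0.0262 from limma). *Itga6*, a laminin-binding α subunit, had 26.3, 35.2 and 46.8 FPKM in control, 7.42, 10.9 and 10.02 FPKM in LPS 4 h and 5.56, 7.03 and 10.7 FPKM in LPS 72 h, falls of 1.91 and 2.22 on the log2 scale (adjusted p = 4.01e-05 and 4.34e-05 from limma). In RANKL 72 h *Itga6* was at 46.4, 38.1 and 41.4 FPKM and was not called. *Itgb8*, a further αv partner, had 0 to 0.0301 FPKM in control and 0.362, 1.29 and 1.78 FPKM in LPS 4 h and 0.0758 to 0.0971 FPKM in LPS 72 h. It passed the filter only through LPS 4 h, so no test of it is given. *Fermt3*, the kindlin of blood cells, and *Tln1*, talin, were not called against control in any group. *Fermt3* was at 86.8 to 175 FPKM and *Tln1* at 48.2 to 140 FPKM over the 15 libraries. In LPS 4 h *Fermt3* had a log2 difference of -0.57 (adjusted p = 0.0011 from limma, under the fold threshold), but the median gene itself moved by -0.57 there.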
